A study of Bos taurus with 35 samples.

Results

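The expression of U3 (ENSBTAG00000028359), a small nucleolar RNA (snoRNA) gene, and of 5_8S_rRNA (ENSBTAG00000048608), a 5.8S ribosomal RNA (rRNA) gene, was followed in beef muscle after slaughter. These are 2 of the 27607 genes in the count table, and both were among the 14630 genes expressed highly enough to be tested. They were picked because they rose above their level at 0 h in earlier results from these same samples. Their levels and fold changes below are therefore a description, and no p-value is given for them.

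RNA-Seq was performed on *longissimus thoracis*, the long muscle of the back, from 7 crossbred beef heifers (British × Continental) that weighed 525 to 635 kg. Cores were taken from the left side of each chilled carcass at 0 h (45 min after slaughter) and at 6, 24, 48 and 72 h *post-mortem*, which gave 35 samples at 5 time points. The labels separate the groups by time alone and name no other treatment. Every animal was sampled at every time point, so that animals are the replicates (n = 7), and all 4 comparisons share the same 0 h samples. The study asked how the transcriptome of beef changes after death, and the samples represent 1 muscle in 1 chilling regime. Total counts ranged from 20568418 to 104275821 per sample, and the means of the time points lay between 41040718 and 55418587. In bulk tissue, fewer cells of a type and less RNA per cell cannot be told apart.

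Ribosomes are assembled in the nucleolus, where RNA polymerase I transcribes 1 long precursor that holds the 18S, 5.8S and 28S rRNA. U3 is a box C/D snoRNA, but rather than guiding a methylation it base pairs with the precursor and is needed for the cuts that release 18S rRNA in the small subunit processome. The 5.8S rRNA lies between the internal transcribed spacers ITS1 and ITS2 of the precursor, is trimmed by the nuclear exosome and ends up paired with 28S rRNA in the large subunit. Neither RNA carries a poly(A) tail in its mature form, while the libraries were made with a kit for mRNA, so that the counts reflect the RNA of these genes that entered such a library. Both families have near-identical copies in mammalian genomes, and the counting options given in the study's methods do not include reads that map to several places. The counts of each gene are uncertain to that extent, and its level cannot be compared with that of another gene since gene lengths were not used here.

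U3 had few reads at 0 h and a higher level in every animal at each later time point. At 0 h its level was 0.055 CPM (reads of the gene scaled to a fixed library total) in the lowest animal, 0.124 in the median animal and 0.502 in the highest, with a mean of 0.164 ± 0.152 CPM (SD, n = 7). These values rest on few reads, from 2 in animals 103 and 202 to 29 in animal 107, and 62 in all. At 6 h the lowest, median and highest levels were 0.644, 1.10 and 1.82 CPM, from 348 reads in all, and the mean was 1.22 ± 0.431 CPM. The lowest animal at 6 h thus lay above the highest animal at 0 h.

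The level of U3 was higher again at the later time points. At 24 h it was 0.983, 2.02 and 3.25 CPM in the lowest, median and highest animal, with a mean of 1.85 ± 0.820 CPM. At 48 h the corresponding levels were 1.36, 1.69 and 4.34 CPM, with a mean of 2.23 ± 1.09 CPM. The median was thus lower at 48 h than at 24 h although the mean was higher. At 72 h the levels were 1.34, 3.44 and 7.66 CPM, the mean was 3.34 ± 2.18 CPM, and 1054 reads were counted over the 7 animals.

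The order of the animals was partly kept over time. Animal 107 had the highest U3 level at all 5 time points, with 0.502, 1.82, 3.25, 4.34 and 7.66 CPM from the first to the last. Animal 103 had the lowest level at 4 time points, and animal 104 at 24 h. The highest animal exceeded the lowest 9.06-fold at 0 h, where the reads were few, 2.83-fold at 6 h and 5.70-fold at 72 h. By Dixon's criterion animal 107 stood apart from the other 6 animals at 0 h on both the linear and the log2 scale, and at 72 h on the linear scale but not on the log2 scale.

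5_8S_rRNA was well covered in all 35 samples, with 829 reads in the sample with the fewest. At 0 h its level was 23.0 CPM in the lowest animal, 33.3 in the median animal and 43.6 in the highest, with a mean of 35.6 ± 7.38 CPM (SD, n = 7). At 6 h the lowest, median and highest levels were 61.4, 170 and 324 CPM, and the mean was 183 ± 92.2 CPM. The 2 time points did not overlap, and the spread between animals was wider at 6 h, where the highest animal exceeded the lowest 5.28-fold compared with 1.90-fold at 0 h.

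From 6 h to 48 h the level of 5_8S_rRNA stayed within a similar range. At 24 h the lowest, median and highest levels were 99.2, 241 and 318 CPM, with a mean of 216 ± 93.0 CPM. At 48 h they were 104, 221 and 363 CPM, with a mean of 219 ± 92.2 CPM. At 72 h they were 137, 245 and 975 CPM, with a mean of 413 ± 334 CPM. The mean at 72 h was raised by animals 201 and 202, at 975 and 773 CPM, while the median was close to that at 24 h. Animal 201 had the highest level at 6, 48 and 72 h and animal 107 at the other two, so that animal 107 led for both genes at 0 and 24 h. Animal 103 had the lowest level of 5_8S_rRNA at 0, 6 and 72 h.

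**Figure D1:**
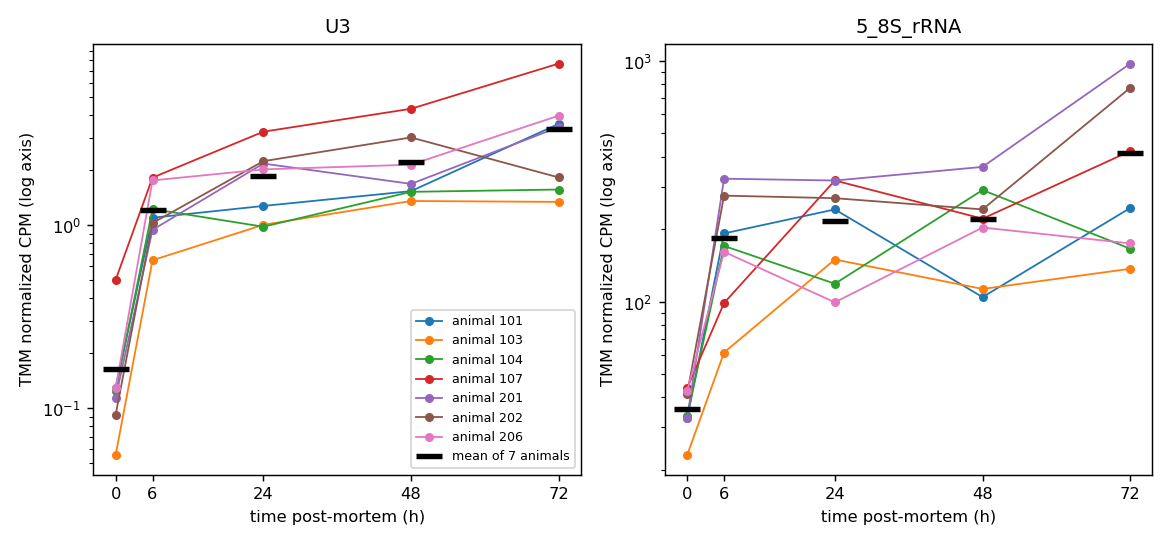
Level of U3 (left) and 5_8S_rRNA (right) in each of 7 animals, as TMM normalized CPM on a log axis, against the time post-mortem in hours; each coloured line is 1 animal and black bars are the mean of 7 animals. For both genes every animal at 6 h or later lies above every animal at 0 h, with 0.644 CPM as the lowest later U3 level and 61.4 CPM as the lowest later 5_8S_rRNA level.

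For both genes, all 7 animals at each later time point were above all 7 animals at 0 h. The highest U3 level at 0 h was 0.502 CPM and the lowest afterwards 0.644 CPM, and for 5_8S_rRNA these levels were 43.6 and 61.4 CPM. Of all genes tested, 0.13%, 0.253%, 3.11% and 7.9% were higher without overlap at 6, 24, 48 and 72 h, in that order. Since the 2 genes were chosen by this contrast, nothing is read from their place in these shares.

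In the edgeR model with animal as a block, U3 was 7.87-fold higher at 6 h than at 0 h, or 2.98 with a standard error of 0.28 on the log2 scale. At 24, 48 and 72 h its log2 fold changes were 3.52 (0.27), 3.77 (0.27) and 4.27 (0.26), which equals 11.5-fold, 13.6-fold and 19.3-fold. 5_8S_rRNA was 4.62-fold higher at 6 h, or 2.21 with a standard error of 0.29 on the log2 scale. At 24, 48 and 72 h its log2 fold changes were 2.51 (0.29), 2.53 (0.29) and 3.22 (0.30), which equals 5.70-fold, 5.78-fold and 9.32-fold. For both genes the larger part of the log2 increase seen at 72 h was thus present at 6 h.

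The choice of the 2 genes placed them among the upregulated genes at all 4 time points (FDR below 0.05 and fold change above 1.5), which is no test of their rise. The share of tested genes upregulated at these thresholds was 0.349%, 0.725%, 2.96% and 9.8% over the same 4 comparisons. Ranked by log2 fold change among the 14630 genes, U3 was number 4, 3, 6 and 3 at 6, 24, 48 and 72 h. 5_8S_rRNA was number 10, 8, 10 and 9. The median log2 fold change of all genes was between -0.0048 and 0.014. A median near 0 is largely set by the TMM scaling, which presumes that most genes do not change. With total counts as the sole scaling the median was 0.0087, 0.0078, -0.091 and -0.16 at 6, 24, 48 and 72 h.

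**Figure D2:**
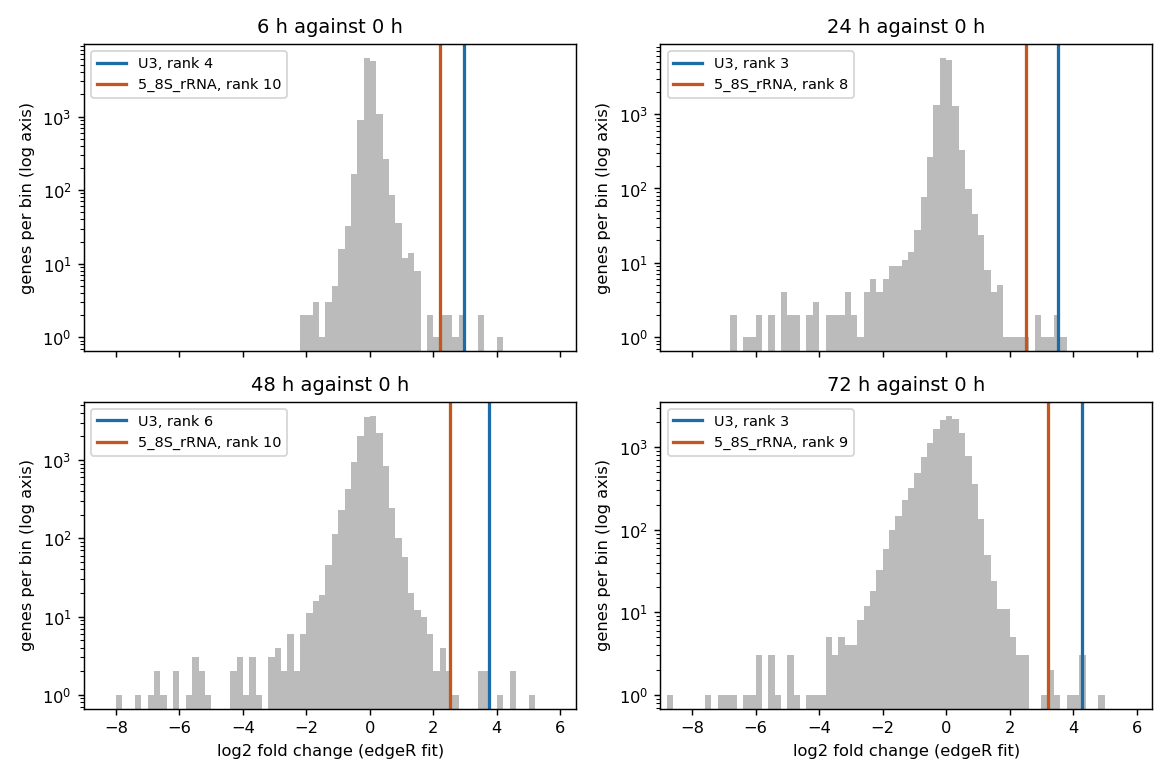
Distribution of the log2 fold change against 0 h over all 14630 genes tested, 1 panel per time point, with the number of genes per bin of 0.2 on a log axis; the vertical lines mark U3 and 5_8S_rRNA. U3 ranked between 3 and 6 and 5_8S_rRNA between 8 and 10, in the right tail at every time point.

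The changes within single animals, as differences of log2 CPM from the same animal at 0 h, were positive in 7 of 7 animals for both genes at all 4 time points. For U3 they averaged 2.76 ± 0.50, 3.30 ± 0.59, 3.57 ± 0.51 and 4.03 ± 0.47 from the earliest to the latest comparison (SD, n = 7). For 5_8S_rRNA they averaged 2.21 ± 0.75, 2.50 ± 0.71, 2.53 ± 0.60 and 3.17 ± 1.04. The smallest change of U3 at 6 h was 1.78, in animal 107, which had started from the highest level. The largest change of 5_8S_rRNA at 72 h was 4.89, in animal 201, and the smallest was 2.04, in animal 206.

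Where U3 had 2 reads at 0 h, the ratio of its levels is known only roughly. In animal 103 the level at 6 h was 11.6 times that at 0 h (95% interval 3.02 to 99.1) and at 72 h 24.2 times (6.54 to 203). In animal 202 the ratios were 11.2 (2.75 to 98.2) at 6 h and 19.9 (5.37 to 166) at 72 h. In animal 107, with 29 reads at 0 h, the ratio at 6 h was 3.63 (2.24 to 5.98). These intervals cover counting error only.

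**Figure D3:**
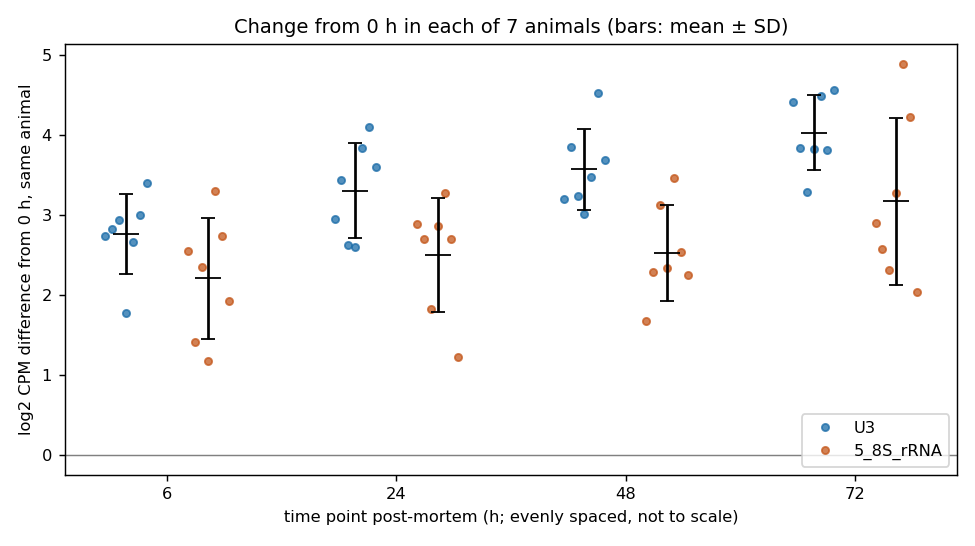
Difference of log2 CPM from the 0 h sample of the same animal, for U3 (blue) and 5_8S_rRNA (orange) at each time point; points are 7 animals and bars the mean ± SD. All points are above 0, and the mean change of U3 goes from 2.76 at 6 h to 4.03 at 72 h while that of 5_8S_rRNA goes from 2.21 to 3.17.

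The mean level of both genes followed the order of sampling, lowest at 0 h and highest at 72 h, but not every step was larger than its spread between animals. For U3 the step from 6 to 24 h averaged 0.54 ± 0.54 on the log2 scale and was upward in 6 of 7 animals. The step from 24 to 48 h was 0.26 ± 0.32 (6 of 7 animals) and that from 48 to 72 h was 0.46 ± 0.70 (5 of 7 animals), both smaller than their SD. Over the whole interval from 6 to 72 h, U3 was higher in 7 of 7 animals, by 1.26 ± 0.61. The level was higher at each successive time point in 3 of the 7 animals, and 5 animals had their highest level at 72 h.

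For 5_8S_rRNA no step after 6 h exceeded its SD. It averaged 0.29 ± 0.89 from 6 to 24 h (upward in 3 of 7 animals), 0.03 ± 0.88 from 24 to 48 h (3 of 7 animals) and 0.65 ± 0.92 from 48 to 72 h (5 of 7 animals). From 6 to 72 h the difference was 0.97 ± 0.83, upward in 6 of 7 animals. The level was higher at each successive time point in 0 of the 7 animals, and 4 animals had their highest level at 72 h.

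The change of U3 was larger than that of 5_8S_rRNA in most animals, though by an amount near the spread between animals. The difference of the changes (U3 minus 5_8S_rRNA, log2) was 0.56 ± 0.73 at 6 h and above 0 in 6 of 7 animals. At 24, 48 and 72 h it was 0.81 ± 0.88 (6 of 7 animals), 1.04 ± 0.77 (7 of 7 animals) and 0.86 ± 1.06 (5 of 7 animals). By this measure the mean difference exceeded its SD at 48 h and at no other time point. The prior count lowers the change of U3 in animals with few reads at 0 h. In animal 103 the change at 6 h was 2.82 on the log2 scale, although the level rose 11.6-fold. For U3 at 6 h the edgeR fit gave 2.98, compared with a mean change of 2.76. The comparison with the SD and the counts of animals hold for this measure alone, and they may understate the difference.

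Both genes varied more than most in what the edgeR model left after animal and time point. The biological coefficient of variation, estimated with both in the model, was 0.243 for U3 and 0.353 for 5_8S_rRNA. Over all genes tested, which were not matched for level, the median was 0.102 and the 90th percentile 0.214. The part of the low level of U3 in its coefficient was not tested. The model takes out a constant offset of each animal, so that this part of the spread between animals is not in the coefficient. Differences between animals in their change over time remain in it. The SD of log2 CPM of 5_8S_rRNA between animals was 0.32 at 0 h and between 0.67 and 1.13 later. That of U3 was 0.77 at 0 h, where counting error adds to it, and between 0.50 and 0.88 later.

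Whether animals with more U3 also had more 5_8S_rRNA was not used in choosing the genes and was tested within each time point. Pearson's r of log2 CPM over 7 animals was 0.64, 0.10, 0.58, 0.29 and 0.29 from 0 h to 72 h, and 0.42 for the animal means. Spearman's rho was 0.54, -0.25, 0.75, 0.21, 0.43 and 0.46. In exact two-sided permutation tests (n = 7) the p-values of Pearson's r were 0.15, 0.85, 0.17, 0.55, 0.51 and 0.34, and those of rho 0.24, 0.59, 0.066, 0.66, 0.35 and 0.30. After Benjamini-Hochberg adjustment over the 6 correlations the lowest exact p-value was 0.51 for r and 0.40 for rho, so that no covariation was detectable with 7 animals.

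The correlations also varied with the animals included. Without the 2 animals farthest from the median U3 level, r became -0.39, -0.81, 0.27, 0.37 and -0.02 over the 5 time points and 0.05 for the animal means. At 0 h r was thus negative without both animals 103 and 107, but it stayed between 0.47 and 0.78 without any 1 animal. Leaving out the animals farthest from the median narrows the range of U3, which can by itself lower r. At 6 h, leaving out animal 103 alone turned r to -0.89, with an adjusted p of 0.10 in the exact permutation test. At that time point animals 107 and 206 had the highest U3 levels but were not among the 4 highest for 5_8S_rRNA.

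**Figure D4:**
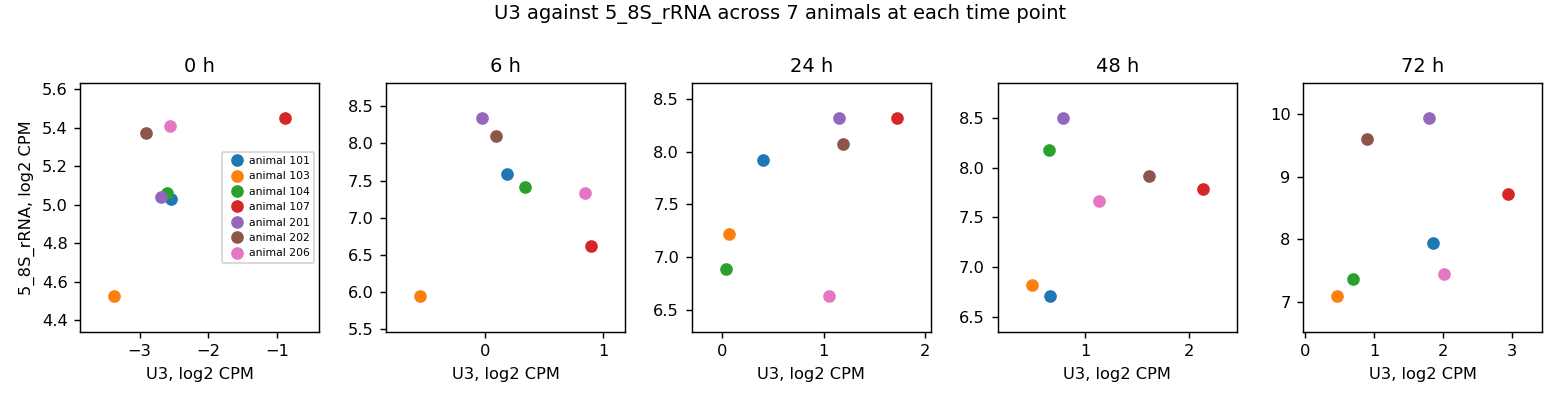
Log2 CPM of 5_8S_rRNA against log2 CPM of U3 at each time point, 1 point per animal, with axes that differ between panels. Pearson's r is 0.64, 0.10, 0.58, 0.29 and 0.29 from 0 h to 72 h, and animal 107 is farthest to the right in each panel.

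Over all 35 samples, with the mean of each animal removed, the 2 genes followed each other (r = 0.90), and each was among the genes most like the other. Since both were chosen for a rise from 0 h in these samples, this likeness follows in part from the choice. For U3 the closest of the 14630 genes were STARD3 (r = 0.91), a cholesterol carrier of late endosomes, VPS52 (0.90), which belongs to a vesicle tethering complex, 5_8S_rRNA (0.90, number 3), SCARF1 (0.90), a scavenger receptor, and the long non-coding RNA gene ENSBTAG00000052369 (0.90). For 5_8S_rRNA they were GADD45B (0.91), a gene induced by stress and DNA damage, U3 (0.90, number 2), PNMT (0.89), which methylates noradrenaline to adrenaline, PARP3 (0.86), a poly(ADP-ribose) polymerase family member, and SLC20A1 (0.86), a phosphate transporter. These correlations describe a shared course over the 5 time points in the same libraries.

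When the mean of each time point was removed as well, r between U3 and 5_8S_rRNA fell to 0.14. By that measure 5_8S_rRNA was number 3531 in the list for U3 and U3 was number 4961 in the list for 5_8S_rRNA. The 5 genes then most like U3 had r between 0.62 and 0.68 and carry no name in the sources used here. For 5_8S_rRNA the closest 5 had r between 0.66 and 0.68 and included FOXJ1, a transcription factor of motile cilia, and the microRNA gene bta-mir-10b, both with r = 0.67. None of these genes was among the 5 most like U3 or 5_8S_rRNA with the time course kept. The r values of the lists are therefore not compared.

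The proteins that work with U3 and on 5.8S rRNA were examined in lists of 153 genes. Gene names were available solely for genes earlier found differentially expressed (DE) in these samples. The names were also cut short among genes downregulated at 72 h, so that decreases can be missing from the counts below. That left 16 of the 153 genes to look up. None of the 5 proteins of the U3 particle (such as fibrillarin) was among them, and the share of the 16 genes that changed is fixed by this choice. Of the 16 genes, 0 changed in either direction at 6 or 24 h (edgeR, FDR below 0.05 and fold change above 1.5). DESeq2 and limma also called 0 at both time points, and at an unadjusted p below 0.05 5 were higher and 0 lower at 6 h, compared with 6 and 1 at 24 h. At 48 h 1 gene was downregulated and 0 upregulated, while the counts at 72 h were 11 upregulated and 5 downregulated. Of all genes tested, 0.349%, 0.725%, 2.96% and 9.8% were upregulated at the 4 time points, and 0.185%, 0.95%, 6.3% and 15.4% were downregulated. The median log2 fold change of the 16 genes was 0.11, 0.10, 0.36 and 0.64 in the same order, below the value of either U3 or 5_8S_rRNA.

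Among the assembly factors and particle proteins, NHP2, a core protein of the other class of snoRNA particles (box H/ACA), was upregulated at 72 h (log2 fold change 0.70, standard error 0.06, FDR = 4.5e-11). Its level was 22.4 ± 2.25 CPM at 0 h and 36.4 ± 3.22 CPM at 72 h, higher in 7 of 7 animals. SNAPC4, a subunit of the complex that starts transcription of small nuclear RNA genes and of U3, was upregulated at 72 h (0.69, standard error 0.07, FDR = 9.0e-10). Its log2 fold change at 6 h was 0.30 with an FDR of 0.016, which is below the fold change threshold. In the small subunit processome, to which U3 belongs, ESF1 (0.85) and NOL7 (0.63) were upregulated and UTP15 (-0.74) was downregulated at 72 h. Without animal 201 the value of NOL7 was 0.58, just under the fold change threshold.

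The factors that mature 5.8S rRNA went in both directions at 72 h. EXOSC4, a subunit of the exosome (0.66, FDR = 1.3e-09), and NOP16, a large subunit assembly factor (0.63, FDR = 1.1e-10), were upregulated. NIP7, which acts in large subunit assembly, was downregulated, from 4.16 ± 0.746 CPM at 0 h to 1.38 ± 0.375 CPM at 72 h (-1.62, standard error 0.19, FDR = 1.3e-08), and was lower in 7 of 7 animals. It was also the 1 gene downregulated at 48 h (-0.85, FDR = 3.3e-04). TENT4B, a poly(A) polymerase that marks nuclear RNA for the exosome, fell by 1.09 on the log2 scale (FDR = 1.2e-07). The other 2 downregulated genes, named after their values were seen, were NVL (-0.89), an ATPase of large subunit assembly, and MTREX (-0.80), the helicase that feeds RNA to the exosome.

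Of the 26 genes of the RNA polymerase I list, 5 were named, and all 5 were upregulated at 72 h. As names came solely from genes found DE, that they were called is nearly fixed by the naming. Genes of the list downregulated at 72 h could lack a name, so that nothing is read from the shared direction of the 5. Of all genes tested, 9.8% were upregulated at 72 h. The largest log2 fold changes were those of POLR2F (0.73, FDR = 1.1e-10) and POLR2L (0.67, FDR = 8.5e-09), subunits that polymerase I shares with other polymerases. The other 3, TAF1D, POLR1D and POLR1G, named after their values were seen, had log2 fold changes of 0.66, 0.65 and 0.59. POLR1G lay at the threshold and missed it without animal 101 (0.58), 103 (0.54) or 201 (0.54). With total counts as the sole scaling, which moved the median of all genes by -0.17 at 72 h, 1 gene of all these lists passed the thresholds upward, and the 5 polymerase genes had log2 fold changes of 0.42 to 0.56, below the fold change threshold.

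**Figure D5:**
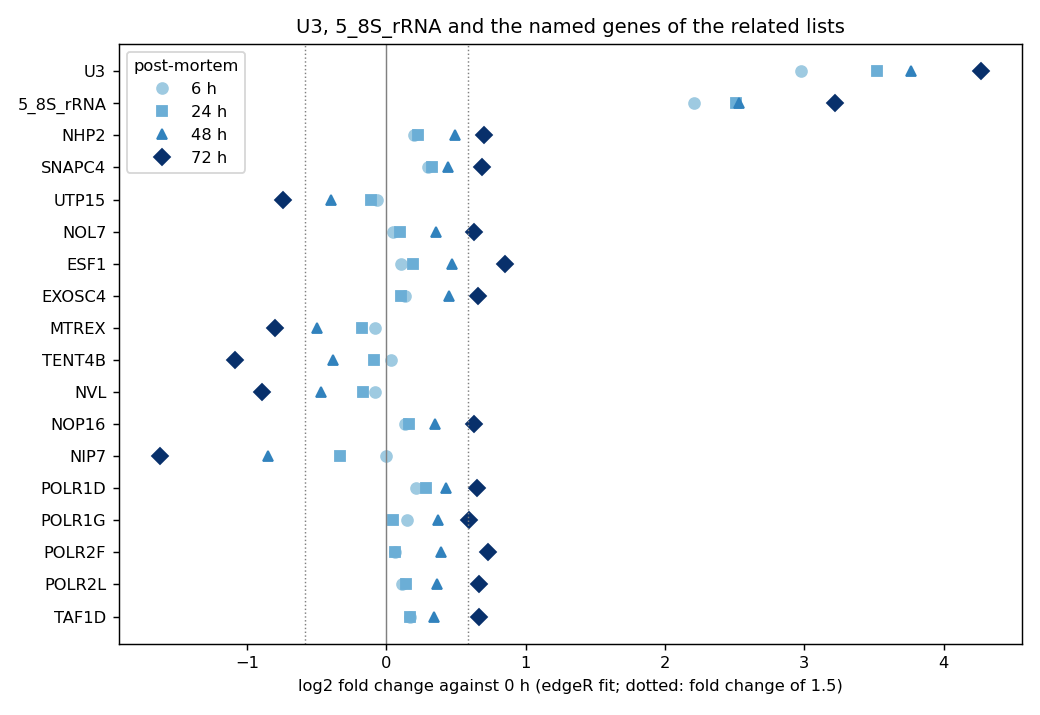
Log2 fold change against 0 h of U3, 5_8S_rRNA and the 16 named genes of the related lists, with 1 symbol per time point and dotted lines at a fold change of 1.5. U3 (2.98 to 4.27) and 5_8S_rRNA (2.21 to 3.22) lie far to the right at all time points, whereas the other genes cross the dotted lines at 72 h, and NIP7 at 48 h.

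Other small non-coding RNA genes without a poly(A) tail, 35 in number besides the 2 genes, were found by name, again solely among genes found DE in these samples, so that the share of them called is largely fixed by the naming. The sources name no second U3 or 5.8S rRNA gene. Small RNA genes downregulated at 72 h could lack a name, so that increases and decreases cannot be set against each other. Of the 35 genes, 7, 13, 23 and 28 were upregulated at 6, 24, 48 and 72 h, and 0, 1, 2 and 3 were downregulated (edgeR). Of all genes tested, the upregulated share was 0.349%, 0.725%, 2.96% and 9.8%, and the downregulated share 0.185%, 0.95%, 6.3% and 15.4%. DESeq2 and limma also called 0 downregulated at 6 h, where 1 gene was lower at an unadjusted p below 0.05. Leaving out animal 101 or animal 107 lowered the 7 upregulated genes at 6 h to 2, leaving out animal 103 lowered them to 4, and a model without animal as a block lowered them to 1. The 13 upregulated genes at 24 h became 7 without animal 101 and 8 without animal 107 or 202. Their median log2 fold change was 0.68, 0.73, 0.85 and 1.09 at the 4 time points. They comprised 16 genes named SNORD (box C/D), of which 13 were upregulated at 72 h, and 11 named SNORA (box H/ACA), of which 9 were upregulated and 1 downregulated.

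Of these 35 genes, 1 exceeded U3, and likewise 5_8S_rRNA, at every time point. It was SNORA57, named here after its values were seen, with log2 fold changes of 3.55, 3.79, 4.45 and 4.39 at 6, 24, 48 and 72 h and levels of 0.064 ± 0.064 CPM at 0 h and 1.27 ± 0.840 CPM at 72 h. The others named here were also picked after their values were seen. Metazoa_SRP, the RNA of the signal recognition particle, had a log2 fold change of 2.03 (FDR = 2.6e-05) at 72 h, and the 2 U6 genes, which belong to the spliceosome, had 2.09 and 1.45. U8, a box C/D snoRNA needed for the maturation of 5.8S and 28S rRNA, was instead downregulated at 72 h, by -0.85 (standard error 0.20, FDR = 5.5e-04), from 0.722 ± 0.158 to 0.424 ± 0.095 CPM. SNORA66 was downregulated at 48 h (-0.92) and 72 h (-1.61). Of the 2 genes named 7SK, 1 was upregulated (1.39) and 1 downregulated (-1.23) at 72 h. Small RNA genes that lie inside introns of other genes can also receive reads from their host transcripts.

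Markers of other cell types moved over the same time points. They too could be looked up solely among genes found DE, with genes downregulated at 72 h in part missing. This nearly fixes the share of them called at 72 h. At that time point 9.8% of all genes tested were upregulated and 15.4% downregulated. Of 12 muscle fibre markers 4 could be looked up, and their summed level was 32772 to 39434 CPM at 0 h and 54757 to 83822 CPM at 72 h. All 7 adipocyte markers were downregulated at 72 h, and their sum was 374 to 675 CPM at 0 h and 162 to 320 CPM at 72 h. The 8 of 11 T and NK cell markers found were upregulated at 72 h, with sums of 5.47 to 11.8 CPM at 0 h and 12.4 to 16.4 CPM at 72 h. The 6 of 8 macrophage markers found were downregulated, with sums of 42.3 to 143 CPM and 13.6 to 48.2 CPM. At 6 h 0 of the 28 markers found in these lists passed the thresholds with edgeR, DESeq2 or limma. Of these 28 markers, 6 had an unadjusted p below 0.05 (5 higher and 1 lower). Of all genes tested, 0.349% were upregulated and 0.185% downregulated at 6 h, so that nothing is read from the count of 0. Of 7 fibroblast markers 1 and of 6 erythroid markers 2 were found, with erythroid sums up to 3.59 CPM at 0 h and up to 72.1 CPM at 48 h. None of the 7 endothelial markers and none of the 3 nuclear RNAs on the lists had a name. The part of these shifts in the change of U3 and 5_8S_rRNA was not tested.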

How the data were processed

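RNA-Seq counts of 35 *longissimus thoracis* samples (7 animals at 5 time points) were used. Per the submitters' processing notes, reads were trimmed with Trimmomatic (version 0.39, minimum length 75), checked with FastQC (0.11.8), mapped to ARS-UCD1.2 with STAR (2.7.0f) and counted per gene with featureCounts (1.6.4). The deposited values are raw counts, which the authors neither normalized nor filtered. Counting was strand specific by its description and by the title of the deposited table (reverse strand), although the printed option is the unstranded one.

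The analysis followed the study's design in edgeR (version 4.0.16, R 4.3.3): filterByExpr with time point as group, TMM, animal as a block, and quasi-likelihood tests adjusted by Benjamini-Hochberg over 14630 genes (FDR below 0.05, fold change above 1.5). TMM factors ranged from 0.846 to 1.11. Standard errors were derived from the log2 fold change and its F statistic. Log2 CPM used a prior count of 2. U3 passed the filter through the later time points: it exceeded the filter's 0.249 CPM in 29 of 35 samples but in 1 of 7 at 0 h, and 5_8S_rRNA did so in all 35. The animal number pairs the samples, since 1 carcass gave all 5 samples of a number: after removal of time point means, samples had a median r of 0.58 within animals (70 pairs, 0.29 to 0.77). The intervals of the U3 ratios are exact 95% intervals of the read counts.

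The 2 genes and the lists were chosen with earlier results of these data known. Genes named were the 2 genes, up to 2 with the largest increase and 2 with the largest decrease per list at 72 h, and the 5 most correlated genes; others are marked as chosen after their values were seen. Names and biotypes came from the study's table of DE genes. The copy used here was shortened among the genes downregulated at 72 h, so that such genes could lack a name. The counts of named genes upregulated and downregulated at 72 h therefore cannot be set against each other. Gene lengths, coordinates and sequences of the 2 genes were not used here. The model was tested on simulated counts of 14473 genes for 72 h against 0 h: it recovered 95 of 100 genes changed 2-fold and 98 of 100 changed 3-fold, with 0 of 14274 unchanged genes called. The simulated counts had no animal effect, took their dispersion from these data and held as many increases as decreases. The simulation therefore cannot show how the model handles animal effects, or scaling when many genes change unevenly. Alternatives used DESeq2 (1.42.0) and limma (3.58.1), other scalings and filters, no block, 2 time points per fit, counts thinned to the smallest library, and each animal left out in turn.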

Additional observations from a re-analysis of the deposited data

Results flagged for a closer look

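Animal 107 stood apart in its U3 level at 2 time points. At 0 h its level was 0.502 CPM, the highest of the 7 animals, with the nearest other animal at 0.130 CPM. At 72 h its level was 7.66 CPM, with the nearest other animal at 3.98 CPM. In both cases the gap to the nearest animal, as a share of the whole range, was above Dixon's 95% critical value for 7 samples. On the log2 scale this held at 0 h (a share of 0.67) and not at 72 h (0.38). In all, 18 groups of 7 samples were examined in this way, and chance flags about 1 in 20 groups. Without animal 107 the log2 fold change of U3 was 3.38 at 6 h in place of 2.98.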

How the results depend on the processing

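Over the alternatives listed above, the log2 fold change of U3 was 2.78 to 4.55 and that of 5_8S_rRNA 2.07 to 3.54 over the 4 time points (64 values of each). As both genes were chosen by this contrast, these ranges show the size alone. Without 1 animal the ranges at 6 h were 2.82 to 3.38 for U3 (highest without animal 107) and 2.07 to 2.34 for 5_8S_rRNA. Without animal as a block the values at 72 h were 4.23 and 3.54. Counts of genes moved more, and unless stated the cause was not tested. The model without the block called 10 genes upregulated and 9 downregulated at 6 h (51 and 27 with it). At 24 h it called 22 and 79 (106 and 139 with it). Of the 35 small RNA genes it called 1, 4 and 14 upregulated at 6, 24 and 48 h, with 0 downregulated at 24 h and 1 at 48 h, and it ended the calls of Metazoa_SRP at 6 h and of U4 at 72 h, while the counts of the related lists stayed the same. Scaling by total counts alone gave 702 genes upregulated at 72 h, and 17.8% of the DE genes were then upregulated compared with 38.9% (18.7% and 32.0% at 48 h), with 1 gene of the related lists upregulated. A filter that required 1 CPM in 7 or more samples, which tests fewer genes of low level, gave 70 upregulated and 92 downregulated genes at 24 h. At 48 h it gave 252 upregulated genes. Of the small RNA genes it called 4, 4, 9 and 8 upregulated at the 4 time points and 0 downregulated at any. In counts thinned to the smallest library, 23 genes were upregulated at 6 h and 69 at 24 h, and 1, 6, 13 and 17 small RNA genes were upregulated at the 4 time points and 1 downregulated at 48 h. Fitting 2 time points at a time gave 3 small RNA genes upregulated at 6 h and 1 downregulated at 48 h, and no filter gave 1 downregulated at 48 h. Without 1 animal, 20 to 47 genes were upregulated at 6 h (26 without animal 101 and 20 without 107) and 16 to 39 downregulated (16 without 107), and 69 to 94 were upregulated at 24 h (69 without 107 or 206). The small RNA genes upregulated were then 2 to 7 at 6 h and 7 to 11 at 24 h (fewest without 101), and 1 to 2 were downregulated at 48 h. The correlation of the 2 genes at 6 h was -0.011 in thinned counts and between -0.89 (without 103) and 0.41 without 1 animal. The call of Metazoa_SRP at 6 h was lost in 12 alternatives. The few reads of U3 at 0 h limit its fold changes, and the number of animals limits the correlations.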

Other observations

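The genes that ranked beside U3 and 5_8S_rRNA were examined after their values were seen. At 6 h the 3 genes with a larger log2 fold change than U3 were FOXJ1 (4.10), a transcription factor of motile cilia, SNORA57 (3.55) and HIST1H2BN (3.52), a histone gene. All 3 had low levels, with means of 0.22, 0.79 and 0.76 CPM over the 35 samples. Their FDR at 6 h in edgeR was 9.2e-04, 1.2e-04 and 0.039. A second snoRNA gene of similar course, ENSBTAG00000045327, has no name in the sources used here. Its log2 fold changes were 2.45, 2.84, 3.40 and 3.16 at 6, 24, 48 and 72 h, and the FDR was 4.5e-04 at 6 h in edgeR. The long non-coding RNA gene ENSBTAG00000052369, which was among the 5 genes most like U3, had log2 fold changes of 2.34, 2.87 and 2.72 at 6, 24 and 48 h. At 72 h it was not among the 10 genes with the largest log2 fold change, and its value is not given here.

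At 48 h the 2 largest increases belonged to the haemoglobin genes HBA (5.13) and HBB (4.59), which mark erythroid cells, and U3 was number 6 behind them, SNORA57, FOXJ1 and HIST1H2BN. The levels of HBA and HBB at 48 h differed widely between animals, at 2.74 ± 5.04 and 11.4 ± 20.7 CPM (SD, n = 7). At 72 h U3 was preceded by ENSBTAG00000052348, a protein-coding gene without a name (4.94), and by SNORA57 (4.39).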
